A study of Mus musculus with 16 samples.

Results

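The interferon regulatory factors (IRFs) are a family of transcription factors that share an N-terminal DNA-binding domain and recognise GAAA-type sequences in the promoters of interferon and interferon-stimulated genes. The 8 members described here are Irf1, Irf2, Irf3, Irf4, Irf5, Irf7, Irf8 and Irf9, taken by symbol from the 24421 genes of the deposited count table, and all 8 were among the 11978 genes with enough counts to be tested. They were measured by bulk RNA sequencing in 16 libraries of conventional type 1 dendritic cells (cDC1s), the dendritic cells that cross-present antigen to CD8 T cells, sorted by flow cytometry from the spleens of C57BL6 mice at steady state. The 4 groups of 4 libraries are mature cDC1s of Xbp1flIre1fl mice, mature cDC1s of Xbp1fl mice, immature cDC1s of Xbp1flIre1fl mice and immature cDC1s of Xbp1fl mice. XBP1 is a transcription factor that cells activate under endoplasmic reticulum stress, and IRE1 (gene symbol Ern1) is the kinase and RNase that switches it on. In both genotypes the named genes carry floxed alleles, none of which is deleted, so the labels give the condition of all 16 libraries as WT. No age is given, nor whether each library is a separate mouse, so the p-values rest on the spread among libraries, which may be technical. The comparison of mature with immature cells asks which genes change when cDC1s mature in the absence of infection.

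IRF members work at several levels of the interferon system. IRF3, IRF5 and IRF7 lie in the cytosol until receptors of microbial nucleic acids lead to their phosphorylation, after which they drive interferon and cytokine genes. IRF9 is the DNA-binding part of ISGF3, the complex that carries the signal of the type I interferon receptor. IRF1 is induced by interferon gamma and activates antigen presentation genes, and IRF2 binds the same sites and can oppose it. IRF4 and IRF8 bind DNA poorly alone and act with PU.1, SPIB or BATF and JUN proteins. IRF8 is required for cDC1s to form, whereas IRF4 is the member tied to the other conventional lineage, cDC2s, and to plasma cells.

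Mature libraries held 13948232 to 16572576 counts and immature libraries 15083053 to 17000763. The 12 cDC1 markers, Xcr1 and Clec9a among them, were all detected and summed to 5263 to 7556 CPM (counts scaled by TMM to a common library total) in mature libraries and 7669 to 8211 CPM in immature ones, and 7 maturation markers including Ccr7 summed to 8401 to 19613 CPM in mature libraries and 270 to 547 CPM in immature ones. Within the cDC1 list the direction was mixed. Ly75, Cd8a, Zbtb46 and Batf3 were called higher in mature libraries, and Wdfy4, Naaa, Tlr3, Xcr1 and Clec9a lower. The remaining 3 were not called, and the list median was −0.06 on the log2 scale. With library sizes only, 2 of the 12 were called higher and 7 lower. The lower sum thus does not stand for each cDC1 marker. Markers of other cells also differed between the stages. Of all genes tested 33.4% were called higher and 34.2% lower in mature libraries, so 3 of 8 cDC2 markers, given below, is near the share of all genes. All 10 B cell markers were called higher in mature libraries, with sums of 331 to 1138 CPM there, against 108 to 171 CPM in immature libraries. Of 13 macrophage markers 9 were higher and 1 lower (753 to 1231 CPM in mature, 399 to 809 CPM in immature libraries). Of 9 T cell markers 7 were higher (135 to 242 CPM in mature, 42.8 to 67.2 CPM in immature libraries), as were 4 of 5 plasma cell markers (103 to 620 CPM in mature, 78.2 to 221 CPM in immature libraries) and 3 of 8 cDC2 markers (305 to 413 CPM in mature, 211 to 264 CPM in immature libraries). Of 7 plasmacytoid dendritic cell markers 2 were higher and 1 lower (93.4 to 179 CPM in mature, 83.8 to 110 CPM in immature libraries), and of 6 monocyte and neutrophil markers 1 was higher and 1 lower (9.68 to 55.1 CPM in mature, 12.7 to 51.8 CPM in immature libraries). No marker named in these lists and tested was at 0 in a whole stage. In bulk RNA, fewer cells of a type and less RNA per cell cannot be told apart. The Xbp1flIre1fl mature group split into 2 pairs by Ccr7, with 6571 and 4985 CPM in replicates 2 and 4 and 11915 and 13418 CPM in replicates 1 and 3. The Xbp1fl mature libraries had 7998 to 11575 CPM. Fits without replicates 2 and 4 therefore keep the pair with more Ccr7 than any Xbp1fl mature library. Calls of members that move without replicates 2 and 4 are given both ways, and counts of lists and markers only in part.

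The sequence just before the start of the gene is shown for the member that rose most with maturation (Irf1), for the most abundant member, which was lower (Irf8), and for Irf2, the member whose window held an interferon-stimulated response element. Each stretch is the 250 bases before the RefSeq start in GRCm38.p6 on the + strand, written 5′ to 3′, at chr11:53769764-53770013 for Irf1, chr8:120736108-120736357 for Irf8 and chr8:46739495-46739744 for Irf2. Capitals mark matches on either strand to 3 motifs, none of which overlaps another here: the interferon-stimulated response element (ISRE, GAAA, any 2 bases and GAAA again), the STAT-binding gamma-activated site (GAS, TTCNNNGAA) and the NF-kB motif.
Irf1: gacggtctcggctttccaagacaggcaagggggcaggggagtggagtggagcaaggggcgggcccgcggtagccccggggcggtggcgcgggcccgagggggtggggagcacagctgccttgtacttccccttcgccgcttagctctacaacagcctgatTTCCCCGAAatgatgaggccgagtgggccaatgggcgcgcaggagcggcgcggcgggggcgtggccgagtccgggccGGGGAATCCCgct
Irf8: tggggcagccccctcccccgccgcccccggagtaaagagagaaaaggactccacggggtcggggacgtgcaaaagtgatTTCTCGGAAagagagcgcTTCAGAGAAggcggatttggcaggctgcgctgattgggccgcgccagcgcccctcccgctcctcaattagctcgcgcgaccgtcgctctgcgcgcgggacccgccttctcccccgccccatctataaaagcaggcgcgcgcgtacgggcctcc
Irf2: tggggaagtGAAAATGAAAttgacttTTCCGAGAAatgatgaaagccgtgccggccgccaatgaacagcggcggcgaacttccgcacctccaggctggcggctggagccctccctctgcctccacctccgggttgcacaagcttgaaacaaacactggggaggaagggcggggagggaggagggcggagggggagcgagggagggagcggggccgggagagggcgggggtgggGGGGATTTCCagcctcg

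In Irf1 the GAS begins 90 bases before the start and the NF-kB match 13 bases before it. Irf8 has 2 GAS matches, which begin 171 and 153 bases before its start. Irf2 has an ISRE at 241 bases, a GAS at 224 bases and an NF-kB match at 17 bases before its start. RefSeq windows of 300 bases (250 before and 50 after the start) exist for all 8 members, 11 windows in all. Of these 11 windows 1 held an ISRE, 3 a GAS and 2 an NF-kB motif, against 3.44%, 8.3% and 4.51% of the 32851 windows of all genes. A match is a description of the letters and does not show that a factor binds there.

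With maturation 4 members rose (Irf1, Irf4, Irf2 and Irf5), 3 fell (Irf7, Irf8 and Irf9) and Irf3 did not pass the test (edgeR, mean of both genotypes, adjusted p under 0.05). Of all genes tested 67.6% were called in this contrast, 33.4% higher and 34.2% lower, so a call by itself sets a member little apart. Sizes differed more: Irf1 and Irf4 rose over 2-fold, as did 12.3% of all genes, while no member fell over 2-fold (1.45% of all genes did). The median log2 fold change was 0.16 over the 8 members and −0.01 over all genes. For 5 members (Irf1, Irf4, Irf5, Irf7 and Irf8) the 8 mature and the 8 immature libraries did not overlap, which held for 33.0% of all genes. The scaling of the libraries bears on the small changes: the median of all genes was −0.13 with upper quartile scaling and −0.23 with library sizes only, and the share of calls that were higher was 49.4% with TMM, 38.0% with upper quartile scaling and 30.8% with library sizes only.

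**Figure D1:**
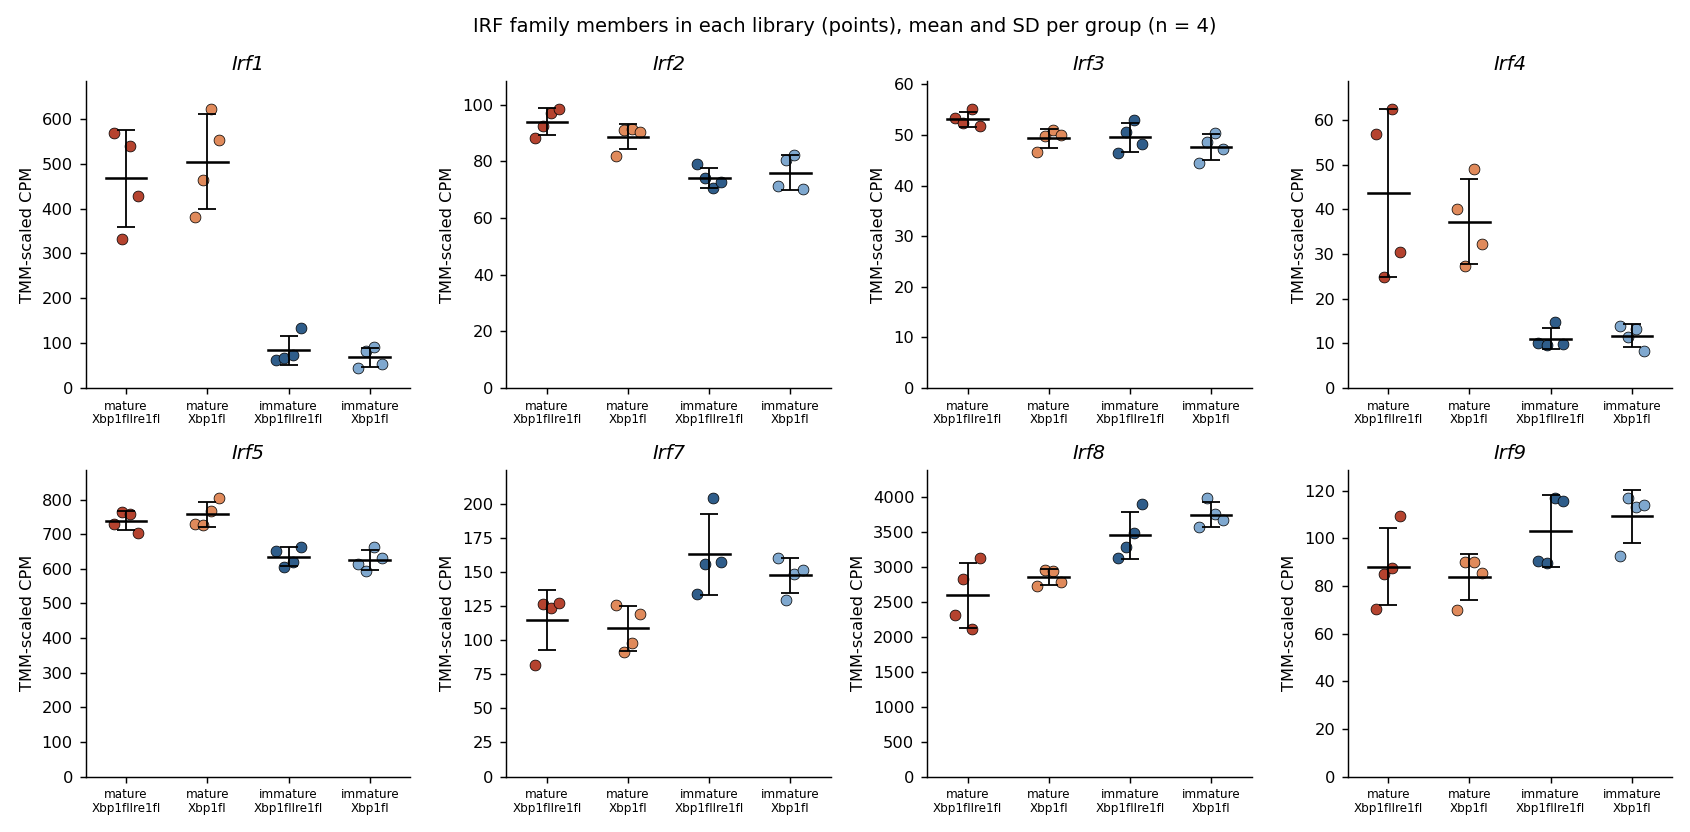
TMM-scaled CPM (linear axes from 0) of the 8 IRF members in each of the 16 libraries, in 4 groups of 4; points are libraries, and bars are the group mean and SD. Irf1 and Irf4 stand well above the immature libraries in all 8 mature ones, whereas Irf3 overlaps between the stages.

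Irf1, on chromosome 11 (53770014 to 53778374, mm10), was the member with the largest change. Xbp1flIre1fl mature libraries had 570, 331, 539 and 429 CPM and Xbp1fl mature libraries 380, 463, 622 and 553 CPM, against 63.0, 66.3, 72.6 and 132 CPM in Xbp1flIre1fl immature and 45.2, 81.9, 90.8 and 53.7 CPM in Xbp1fl immature libraries. The lowest mature library stood above the highest immature library, replicate 4 of the Xbp1flIre1fl group. Irf1 averaged 486 ± 101 CPM in mature cells and 75.7 ± 27.2 CPM in immature libraries (SD, n = 8 each), a 6.45-fold rise (log2 fold change 2.69 ± 0.21 SE; adjusted p = 3.8e-08). The rise was 5.59-fold in Xbp1flIre1fl and 7.44-fold in Xbp1fl libraries. In Xbp1flIre1fl the log2 fold change was 2.48, and 2.72 without replicates 2 and 4 of the mature group.

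Irf2 (chromosome 8, 46739732 to 46847458), the factor that competes with IRF1 for binding sites, rose by a much smaller amount. Its level ran from 82.1 to 98.5 CPM (median 91.3) in mature and from 70.3 to 82.1 CPM (median 73.5) in immature libraries, so the stages met at one value. The log2 fold change was 0.28 ± 0.05 (1.22-fold; adjusted p = 4.56e-05). With library sizes only it was 0.06 (adjusted p = 0.301), so this call depends on the scaling, although relative to the median of all genes the value stayed at 0.29 under both scalings. Per kb of exon, mean Irf1 was 146 against 36.6 CPM per kb for Irf2 in mature cells, and 22.7 against 30.1 CPM per kb in immature cells, where Irf2 was above Irf1 in 7 of 8 libraries.

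Of the 3 members that nucleic acid sensors activate, Irf5 rose, Irf7 fell and Irf3 did not pass the test. Irf3 (chromosome 7, 44997648 to 45002848), which is made constitutively and induces Ifnb1, ran from 46.5 to 55.1 CPM (median 51.3) in mature and from 44.4 to 53.0 CPM (median 48.4) in immature libraries. Its log2 fold change was 0.08 (95% interval −0.02 to 0.17; adjusted p = 0.143). The sign follows the scaling: it was −0.05 with upper quartile scaling (adjusted p = 0.367) and −0.15 with library sizes only (adjusted p = 0.00668, called lower). Relative to the median of all genes, which these scalings also moved, Irf3 was at 0.08 under each of them.

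Irf5 (chromosome 6, 29526625 to 29541871), which acts with MyD88 on inflammatory cytokine genes, ran from 704 to 806 CPM (median 745) in mature and from 594 to 663 CPM (median 625) in immature libraries. Every mature library was above every immature one. Irf5 rose by a log2 fold change of 0.25 ± 0.04 (1.19-fold; adjusted p = 6.21e-05), and with library sizes only the value was 0.02 (adjusted p = 0.661). Its exons share 251 bases (9.48% of the exon length) with Tnpo3 on the other strand, and since strandedness is not stated, reads there cannot be told apart. Overlaps on the other strand were smaller for Irf1 (100 bases, 3.0%, with Gm17334), Irf7 (45 bases, 1.88%, with Phrf1) and Irf3 (8 bases, 0.365%, with Bcl2l12).

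Irf7 (chromosome 7, 141262706 to 141266481, minus strand), the main inducer of alpha interferons and itself an interferon-stimulated gene, was lower in mature cells. Xbp1flIre1fl mature libraries had 82.0, 126, 124 and 127 CPM and Xbp1fl mature libraries 126, 91.5, 97.8 and 119 CPM, against 133, 156, 204 and 157 CPM in Xbp1flIre1fl immature and 160, 130, 149 and 151 CPM in Xbp1fl immature libraries. The highest mature library lay just under the lowest immature one. The log2 fold change was −0.47 ± 0.10 (adjusted p = 7.56e-04), and immature libraries held 1.39 times the mature level. Leaving out replicate 2 or 3 of the Xbp1fl mature group ended the call within Xbp1fl (adjusted p = 0.058 and 0.0522), with the direction kept.

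Irf9 (chromosome 14, 55603571 to 55610030), the DNA-binding part of ISGF3, fell by 0.30 ± 0.09 on the log2 scale (adjusted p = 0.0069). It ran from 69.9 to 109 CPM (median 86.6) in mature and from 89.8 to 117 CPM (median 114) in immature libraries, and the stages overlapped. Within Xbp1fl the log2 fold change was −0.38 (adjusted p = 0.0181, but 0.0654 without replicate 1 of the mature group). Within Xbp1flIre1fl it was −0.23 (adjusted p = 0.144), and with same-numbered mature and immature libraries taken as pairs it was called (replicate block within each genotype, −0.23, adjusted p = 0.0103). It was also called there without mature replicate 4, whose 109 CPM was the highest mature value (−0.35, adjusted p = 0.0212), and without replicates 2 and 4 (−0.39, adjusted p = 0.0262). Upper quartile scaling called it there too (−0.34, adjusted p = 0.0355), as did library sizes only (−0.44, adjusted p = 0.0126). Irf9 shares 123 exon bases with Rnf31 on the same strand, 3.97% of its exon length.

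Irf8 (chromosome 8, 120736358 to 120756694), the factor on which cDC1s depend, was the most abundant member in both stages and was lower in mature cells. Xbp1flIre1fl mature libraries had 2315, 2833, 2111 and 3129 CPM and Xbp1fl mature libraries 2724, 2954, 2941 and 2788 CPM, against 3133, 3290, 3485 and 3905 CPM in Xbp1flIre1fl immature and 3575, 3995, 3760 and 3668 CPM in Xbp1fl immature libraries. The stages did not overlap, by a margin of 3129 against 3133 CPM. Irf8 averaged 2724 ± 343 CPM in mature cells and 3601 ± 295 CPM in immature libraries (SD, n = 8 each), a log2 fold change of −0.40 ± 0.07 (adjusted p = 9.56e-05), so that immature libraries held 1.32 times the mature level. The log2 fold change was −0.41 in Xbp1flIre1fl and −0.39 in Xbp1fl. Without replicates 2 and 4 of the Xbp1flIre1fl mature group it was −0.65 in Xbp1flIre1fl and −0.40 in Xbp1fl, and the interaction of stage and genotype did not pass the test (−0.25; adjusted p = 0.667).

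Irf4 (chromosome 13, 30749226 to 30766976), the closest relative of Irf8, was the scarcest member in both stages and rose. Xbp1flIre1fl mature libraries had 56.8, 24.8, 62.5 and 30.5 CPM and Xbp1fl mature libraries 40.1, 27.4, 49.1 and 32.1 CPM, against 9.99, 9.64, 14.7 and 9.81 CPM in Xbp1flIre1fl immature and 13.9, 11.3, 13.2 and 8.28 CPM in Xbp1fl immature libraries. All mature libraries were above all immature ones, and within the Xbp1flIre1fl mature group replicates 1 and 3 were far above replicates 2 and 4. Irf4 averaged 40.4 ± 14.2 CPM in mature cells and 11.4 ± 2.33 CPM in immature libraries (SD, n = 8 each), a 3.54-fold rise (log2 fold change 1.82 ± 0.21; adjusted p = 1.46e-06). It rose 3.95-fold in Xbp1flIre1fl and 3.17-fold in Xbp1fl libraries. In Xbp1flIre1fl the log2 fold change was 1.98, and 2.43 without replicates 2 and 4 of the mature group.

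B cells and plasma cells express Irf4. All 10 B cell markers and 4 of 5 plasma cell markers were called higher in mature libraries. The plasma cell sums rest mostly on Jchain, the marker of that list that was not called (log2 fold change 0.76, adjusted p = 0.0746). Jchain had a mean of 222 CPM in mature cells, against 123 CPM in immature cells. The next most abundant, Mzb1, had a mean of 25.9 CPM in mature cells. The plasma cell sums given below thus largely follow 1 gene. In replicates 1 to 4 of the Xbp1flIre1fl mature group the B cell markers summed to 796, 340, 1138 and 772 CPM and the plasma cell markers to 421, 118, 620 and 242 CPM. In the Xbp1fl mature group the B cell markers summed to 574, 417, 695 and 331 CPM and the plasma cell markers to 167, 240, 103 and 214 CPM. Both sums ranked the 4 Xbp1flIre1fl mature libraries as Irf4 did, highest in replicate 3 and lowest in replicate 2. In the Xbp1fl mature group the B cell sums, like Irf4, were highest in replicate 3 and next in replicate 1. The lowest library there was replicate 4 for the B cell sums and replicate 2 for Irf4. The plasma cell sums of that group ran in the opposite order to Irf4. The part of these cells in the Irf4 difference was not tested. In the mature library with the fewest B cell transcripts, replicate 4 of Xbp1fl, Irf4 was at 32.1 CPM, above all immature libraries, while its B cell sum of 331 CPM was also above the immature maximum of 171 CPM.

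The balance of the 2 related members does not depend on the scaling of libraries, since both counts come from the same library. Per kb of exon, there were 56.4, 158, 46.9 and 142 Irf8 counts for each Irf4 count in Xbp1flIre1fl mature and 94.2, 150, 83.0 and 120 in Xbp1fl mature libraries, against 434, 472, 329 and 550 in Xbp1flIre1fl immature and 355, 487, 393 and 612 in Xbp1fl immature libraries. No mature library reached the lowest immature value. The log2 ratio of Irf4 to Irf8 averaged −6.61 ± 0.66 in mature and −8.80 ± 0.31 in immature libraries (SD, n = 8 each), a 4.55-fold difference (two-sided exact permutation p = 0.000155, the smallest that 8 against 8 allows). The difference on the log2 scale was 2.32 within Xbp1flIre1fl and 2.05 within Xbp1fl (exact permutation p = 0.0286 each, the smallest that 4 against 4 allows). Over the 8 same-numbered pairs an exact sign-flip test, the paired form, gave p = 0.00781, again the smallest possible. Irf4 was higher and Irf8 lower in every mature library than in every immature one, so the ratio could not overlap. These p-values were fixed by that and add nothing to the results of the 2 members.

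**Figure D2:**
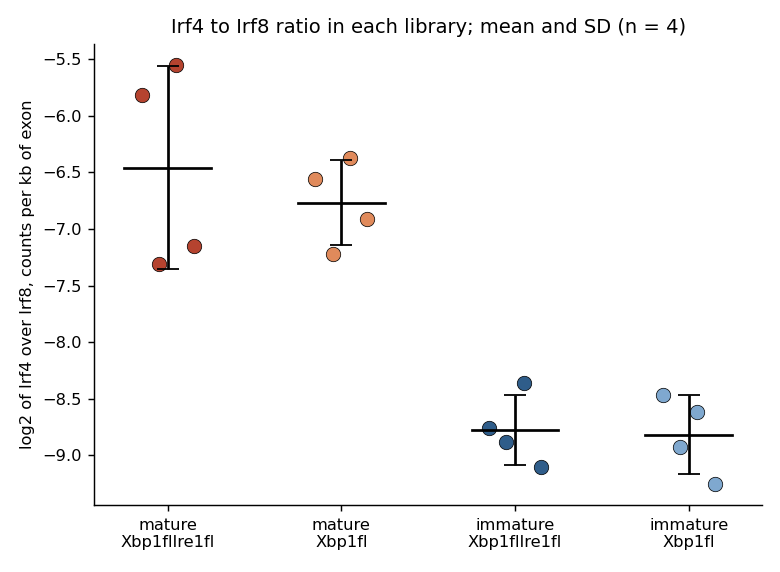
Log2 ratio of Irf4 to Irf8 counts per kb of exon in each library; points are libraries, and bars are the mean and SD of each group of 4. The 8 mature libraries lie between −7.31 and −5.55 and the 8 immature ones between −9.26 and −8.36, and the Xbp1flIre1fl mature group splits into 2 pairs.

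Per kb of exon, members can be set against each other. In mature cells the order was Irf8 (793 CPM per kb), Irf5 (283), Irf1 (146), Irf7 (46.6), Irf2 (36.6), Irf9 (27.7), Irf3 (23.4) and Irf4 (8.48). In immature cells it was Irf8 (1048 CPM per kb), Irf5 (238), Irf7 (64.8), Irf9 (34.3), Irf2 (30.1), Irf1 (22.7), Irf3 (22.2) and Irf4 (2.39). The first 3 places and the last were separate in both stages, with no overlap of neighbouring ranges there. Irf7, Irf2, Irf9 and Irf3 in mature cells, and Irf9, Irf2, Irf1 and Irf3 in immature cells, overlapped with their neighbours, and in immature cells Irf1 was above Irf3 in 3 of 8 libraries. Irf1 stood in the third place in mature cells, against the sixth in immature cells, and Irf9 in the sixth place, against the fourth.

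**Figure D3:**
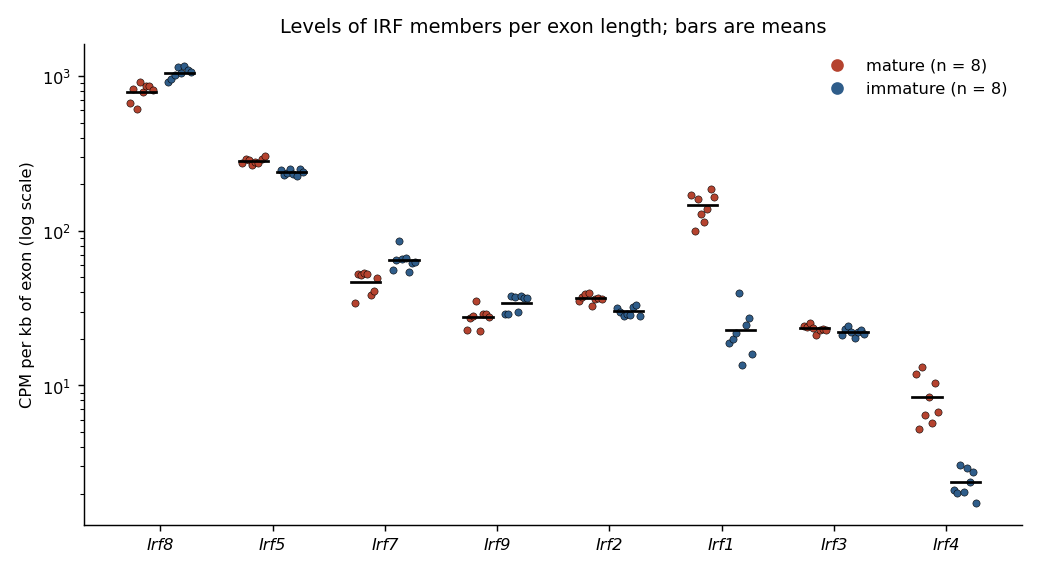
CPM per kb of exon (log axis) of each member in the 8 mature (left, red) and 8 immature (right, blue) libraries; black bars are means. Irf8 leads both stages, and Irf1 stands at 146 in mature against 22.7 CPM per kb in immature cells.

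Summed over the members, IRF transcripts came to 1364 ± 94.8 CPM per kb in mature and 1463 ± 94.4 CPM per kb in immature libraries (SD, n = 8 each). The composition of this sum shifted. Irf8 made up 57.9% of it in mature cells (50.4% to 62.2%) and 71.6% in immature cells (69.2% to 74.5%). The share of Irf1 was 10.7% (7.31% to 13.7%) in mature and 1.54% (0.943% to 2.51%) in immature cells, and that of Irf5 20.8% in mature and 16.3% in immature cells. Irf4 held 0.634% in mature and 0.163% in immature cells.

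**Figure D4:**
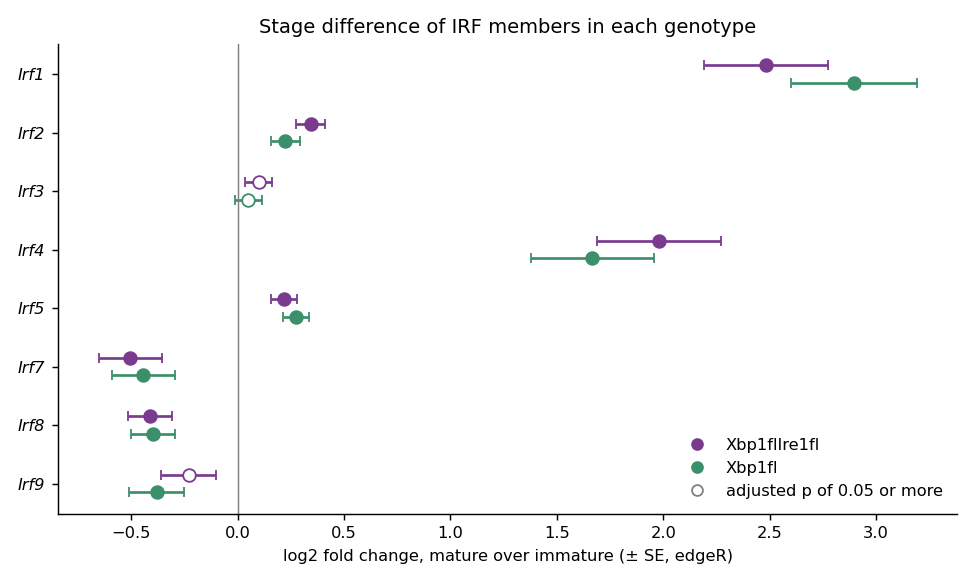
Log2 fold change of mature over immature libraries for each member within Xbp1flIre1fl (purple) and within Xbp1fl (green), with the SE from edgeR; open points did not pass the test. All 8 members have the same sign in both genotypes, with Irf1 at 2.48 in Xbp1flIre1fl and 2.89 in Xbp1fl.

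No member was called between the genotypes. With TMM scaling 6 members were called between stages within Xbp1flIre1fl (53.5% of all genes were), and within Xbp1fl 7 (56.8%). Irf9 was the member that passed in Xbp1fl and missed in Xbp1flIre1fl, where other scalings called it. The test of that difference itself, the interaction of stage and genotype, called 0 of 8 members and 0% of all genes with edgeR, and 0 genes with DESeq2 (329 of 11978 genes had an unadjusted p under 0.05, none of them a member). The interaction was −0.41 for Irf1 (95% interval −1.26 to 0.44) and 0.31 for Irf4 (−0.57 to 1.20), so these libraries do not settle differences of that size. Without replicates 2 and 4 of the Xbp1flIre1fl mature group it was −0.17 for Irf1 (adjusted p = 0.965) and 0.77 for Irf4 (adjusted p = 0.659), and leaving out 1 library at a time it ran from −0.59 to −0.099 for Irf1 and from 0.094 to 0.51 for Irf4. For Irf2, Irf3 and Irf5 the intervals were narrower, all within −0.24 to 0.33.

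Xbp1flIre1fl against Xbp1fl within mature libraries called 0 of 8 members (0.142% of all genes), and within immature libraries 0 of 8 (0.134% of all genes), and no member had an unadjusted p under 0.05 in either. DESeq2 called none of them either. The lowest p was that of Irf3, which had 53.3, 52.3, 55.1 and 51.7 CPM in Xbp1flIre1fl mature and 46.5 to 50.9 CPM in Xbp1fl mature libraries (log2 fold change 0.11, adjusted p = 0.863). Without replicates 2 and 4 of the Xbp1flIre1fl mature group Irf8 was called lower in Xbp1flIre1fl than in Xbp1fl mature libraries (−0.37, adjusted p = 0.0367), where with all libraries it was −0.14 (adjusted p = 0.914). That fit keeps the Xbp1flIre1fl mature libraries with more Ccr7 than any Xbp1fl mature library, and the part of this in the call was not tested.

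Genes with the most similar pattern over the 16 libraries were taken from 8907 genes at 5 CPM or more, and the points share the stage difference and the scaling. Irf1 was followed most closely by Stxbp3, a regulator of vesicle fusion (Pearson r = 0.99), Kdm1a, a histone demethylase (0.99), and Sbno2 (0.99). For Irf8 they were Slc12a9 (0.99), the small GTPase gene Rab19 (0.98) and Mycl (0.97), a MYC family gene, and Slc12a9 and Irf8 also moved together around their group means (0.99). Irf4 had Ms4a1, which encodes the B cell surface protein CD20, as its nearest gene (0.98 over all libraries and 0.90 around the group means), then Vwa5a (0.98) and Smurf1 (0.98), a ubiquitin ligase gene. Ms4a1 averaged 171 CPM in mature cells and 43.8 CPM in immature libraries. Irf7 lay nearest to Dhx58, an RNA sensor of the RIG-I family (0.91), Trim30a (0.91), an interferon-stimulated gene, and Pik3ap1 (0.91). Irf9 lay nearest to Pqlc2 (0.93), Ffar4 (0.92), a receptor of fatty acids, and Sh2d3c (0.91). Irf5 was close to Mrps7 (0.95) and Sppl3 (0.95), Irf2 to Slamf7 (0.94), Agpat1 (0.92) and Tbc1d25 (0.91), and Irf3 to Rbm5 (0.82), Pdcd4 (0.82) and Shoc2 (0.80), the loosest of the 8. Among the members themselves, deviations from the group means were most alike for Irf8 and Irf9 (r = 0.67) and most opposed for Irf4 and Irf8 (−0.58).

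Upstream of the family, 9 of 18 sensors, adaptors and kinases rose, 5 fell and 4 did not pass (their median was 0.17 on the log2 scale, against −0.01 for all genes). The shares of all genes to set beside this and the following lists were 33.4% higher and 34.2% lower with TMM. They do not hold for counts under other scalings. Of the calls over all genes, 49.4% were higher with TMM, 38% with upper quartile scaling and 30.8% with library sizes only. Traf6, the ubiquitin ligase downstream of MyD88 that activates IRF5 and IRF7, was at 155 ± 21.3 CPM in mature cells and 67.8 ± 4.60 CPM in immature libraries (log2 fold change 1.20 ± 0.08; adjusted p = 4.17e-10). Traf3, the adaptor that links sensors to TBK1, rose by 1.38 ± 0.10, and Tbk1, the kinase of IRF3, by 0.85 ± 0.07. The related kinase gene Ikbke rose by 2.54 at a low level (3.54 ± 1.11 CPM in mature cells and 0.602 ± 0.180 CPM in immature libraries). Tlr3, the sensor of double-stranded RNA in cDC1s, fell by 1.03 and Mb21d1, which encodes the DNA sensor cGAS, by 0.84. Ikbke, Tlr3 and Mb21d1 were named with their values known. The B cell, macrophage and T cell marker sums given above differed between the stages too, and their part in the counts of this and the following lists was not tested. The plot of log2 fold changes by list shows all genes, and the counts of upstream genes were 7 higher and 7 lower with upper quartile scaling and with library sizes only.

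Of 10 partner genes 5 rose, none fell and 5 did not pass (median 0.19), and with upper quartile scaling or library sizes only 3 rose. Spib, the PU.1 relative that binds DNA with IRF4 and IRF8, was at 88.9 CPM in mature libraries and rose by 2.82 ± 0.19 (adjusted p = 5.34e-09). Batf, whose product pairs with JUN proteins and recruits IRF4 or IRF8, rose by 1.07 ± 0.09, and Junb by 0.67 ± 0.06. B cells and plasmacytoid dendritic cells also express Spib, and their part in its difference was not tested. With the replicate block within each genotype 8 of the 10 partner genes were called higher. That fit called 8347 of 11978 genes in either direction (8095 without the block), and 49.1% of its calls were higher.

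Of 11 genes whose products restrain IRFs or their signals, 4 rose, 5 fell and 2 did not pass (median −0.11). Tnfaip3, which encodes the deubiquitinase A20, was at 643 ± 142 CPM in mature cells and 172 ± 25.7 CPM in immature libraries (log2 fold change 1.90 ± 0.14; adjusted p = 7.94e-09). Socs1, the inhibitor of JAK kinases, rose by 1.69 ± 0.13, and Usp18, which blocks the type I interferon receptor and is an ISGF3 target, by 1.82 ± 0.15.

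Of 21 ISGF3 targets 15 rose, 1 fell (Mx2) and 5 did not pass, with a median log2 fold change of 0.99. The count of those that fell was 2 with upper quartile scaling, 3 with library sizes only, 0 to 2 when 1 library was left out and 2 without replicates 2 and 4 of the Xbp1flIre1fl mature group. Oasl1, which in mice restrains translation of Irf7 mRNA, was at 59.5 ± 14.8 CPM in mature cells and 5.99 ± 1.92 CPM in immature libraries (log2 fold change 3.32 ± 0.19; adjusted p = 6.79e-10). Herc6, the ISG15 ligase of mice, rose by 1.65 ± 0.14. Levels were mostly low: Isg15 was at 24.2 ± 4.44 CPM in mature cells and 10.5 ± 3.06 CPM in immature libraries and Ifit1 at 5.98 ± 1.79 CPM in mature cells and 1.47 ± 0.584 CPM in immature libraries, both named with their values known.

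Of 14 genes linked to IRF1, 9 rose, 1 fell and 4 did not pass (median 0.91). Cd274, which encodes the checkpoint ligand PD-L1, was at 230 ± 46.3 CPM in mature cells and 27.2 ± 4.81 CPM in immature libraries (log2 fold change 3.09 ± 0.14; adjusted p = 4.62e-11). Gbp2, a guanylate-binding GTPase gene, rose by 3.19 ± 0.15 and Nlrc5, the transactivator of class I antigen presentation genes, by 2.22 ± 0.12. The gene that fell was Ciita, the transactivator of class II genes, at 469 ± 60.2 CPM in mature cells and 710 ± 30.8 CPM in immature libraries (−0.60 ± 0.07). With library sizes only 5 of the 14 were called lower, and 3 without replicates 2 and 4 of the Xbp1flIre1fl mature group or without replicate 4 alone.

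Of 11 genes linked to IRF8 in cDC1s, 6 fell, 3 rose and 2 did not pass (median −0.32). Cd24a, a surface marker of cDC1s, fell to 298 ± 15.6 CPM in mature cells, against 377 ± 23.7 CPM in immature ones (−0.34 ± 0.05; adjusted p = 3.79e-06). Id2, the inhibitor of E proteins, rose by 1.02 ± 0.08. Il12b, the gene of the p40 subunit of interleukin 12, rose by 4.66 ± 0.33 to 1808 CPM in mature cells, against 71.3 CPM in immature cells. Batf3, which keeps Irf8 expressed in the cDC1 lineage, was at the edge of the threshold (log2 0.15, adjusted p = 0.0478; 0.055 in Xbp1flIre1fl and 0.25 in Xbp1fl), and it was called in 4 of the 16 fits that each left out 1 library. It was not called with upper quartile scaling (0.031) or library sizes only (−0.075), where 2 of the 11 genes were called higher.

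Of the interferon and receptor genes 7 were tested, of which 3 rose, 1 fell and 3 did not pass (median 0.20). With upper quartile scaling 2 were called higher and 2 lower (median 0.08), and likewise with library sizes only (median −0.02). Il10rb, the chain shared by the interleukin 10 and lambda interferon receptors, rose by 1.08 ± 0.08 and Ifngr2, the signalling chain of the interferon gamma receptor, by 0.74 ± 0.06. Ifngr1, its ligand-binding chain, fell to 565 ± 96.3 CPM in mature cells, against 871 ± 52.3 CPM in immature cells (−0.63 ± 0.09). Among the interferon genes themselves, Ifng alone had enough counts to be tested, and it was not called (log2 fold change −0.12, adjusted p = 0.809). Its mean was 0.970 CPM over the mature libraries, against 1.05 CPM over the immature ones. The other interferon genes of the list were at or near 0. Ifnb1 had 1 count over the 8 mature and 1 over the 8 immature libraries. Ifna1, Ifna2, Ifna4, Ifna5, Ifnl2 and Ifnl3 had 0 counts in all 16. A count of 0 allows up to 3 counts, or 0.189 to 0.231 CPM in a mature and 0.161 to 0.186 CPM in an immature library, for counting error only.

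**Figure D5:**
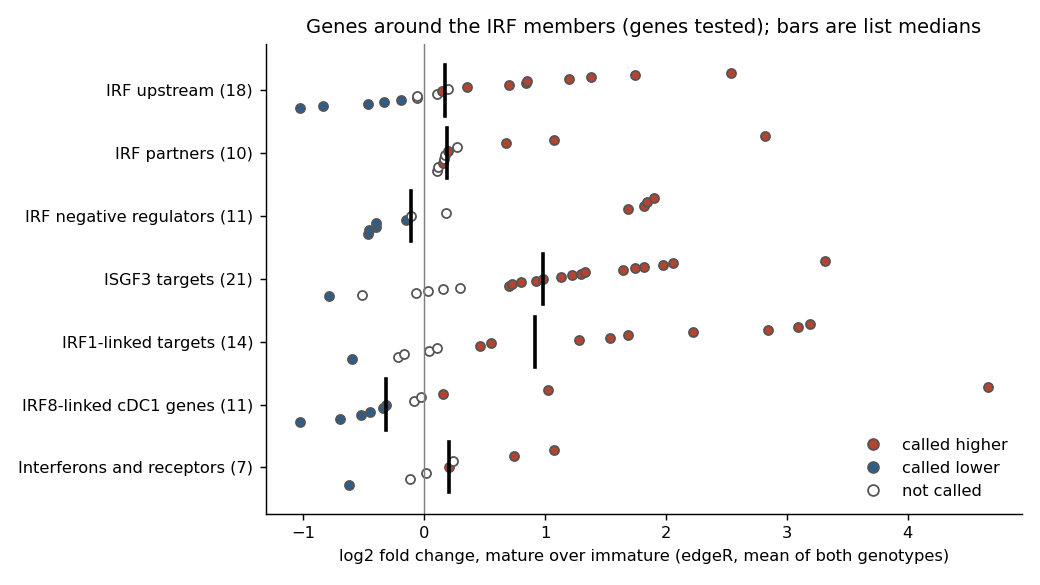
Log2 fold change of mature over immature libraries (edgeR, mean of both genotypes) for each tested gene of 7 lists around the IRF members; filled points were called (red higher, blue lower), open points were not, and black bars are list medians. The ISGF3 targets and IRF1-linked genes have medians of 0.99 and 0.91, and the IRF8-linked genes one of −0.32.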

How the data were processed

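The authors deposited raw counts per gene symbol and a table of log2 values whose normalization is not given in the sources used here. Per the submitters' processing notes, limma 3.42.2, SAMtools 0.1.19, TopHat2 2.1.0, Trimmomatic 0.35 and FastQC 0.11.4 are listed without their roles, with the build mm10. Read counter, annotation and strandedness are not given in the sources used here, and reads shared by overlapping genes may be split in an unknown way.

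Counts were tested with edgeR 4.0.16 in R 4.3.3 (filterByExpr, TMM, robust quasi-likelihood fit of all 16 libraries with 1 mean per group, 12 residual degrees of freedom), with Benjamini-Hochberg adjustment over 11978 genes; a call is an adjusted p under 0.05. The SE is the absolute log2 fold change over the square root of F. Levels per kb use GENCODE exon lengths of mm10, the union over basic coding transcripts. The Irf4 to Irf8 ratio was tested in Python 3.11.15 by exact permutation. Alternatives were other scalings, no filter, no robust estimation, DESeq2 1.42.0, limma 3.58.1 on the deposited log2 table, only the groups compared, replicate blocks and libraries left out.

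Same-numbered mature and immature libraries of a genotype deviated together from their group means (r = 0.265 to 0.516 over 7886 genes, 8 of 8 pairs over 0.1), so the numbers pair the stages within a genotype. The main fit does not use this pairing, and the fits with replicate blocks are given as alternatives. None of 24 pairs within groups were duplicates (chi-square per degree of freedom 5.23 to 57.1).

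The members, lists and tests were chosen with earlier results of these data known. Named genes are the 8 members, per list the 3 genes of smallest adjusted p, and the 3 genes most correlated with each member over 16 libraries (log2 CPM, prior count 2). A few genes that these rules name are not reported here.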

Additional observations from a re-analysis of the deposited data

Results flagged for a closer look

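Within groups of 4, 5 of 36 sets of values (the 8 members and the Irf4 to Irf8 ratio in each group) had 1 library far from the other libraries by Dixon's criterion, which chance gives in about 1 in 20. Irf1 was at 132 CPM in replicate 4 of the Xbp1flIre1fl immature group, where the next library had 72.6 CPM. Irf4 was at 14.7 CPM in replicate 3 of the same group, with the next at 9.99 CPM. Irf7 was at 82.0 CPM in replicate 1 of the Xbp1flIre1fl mature group, with the next at 124 CPM. Irf2 was at 82.1 CPM in replicate 1 of the Xbp1fl mature group, with the next at 90.5 CPM. Irf9 was at 92.6 CPM in replicate 1 of the Xbp1fl immature group, with the next at 113 CPM.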

How the results depend on the processing

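Between mature and immature cells, over both genotypes, Irf1, Irf4, Irf7, Irf8 and Irf9 kept their direction and their call under all alternatives run, leaving out each library included. Irf3 reversed with upper quartile scaling and with library sizes only (−0.046 and −0.15 over both, −0.018 and −0.12 within Xbp1flIre1fl, −0.074 and −0.18 within Xbp1fl), and Irf2 with library sizes only within Xbp1fl (−0.011). Relative to the median of all genes these values were near those with TMM. Upper quartile scaling ended the call of Irf2 within Xbp1fl (0.099, adjusted p = 0.23) and of Irf5 within Xbp1flIre1fl (0.10, adjusted p = 0.16). Library sizes only ended the calls of Irf2 and Irf5 within each genotype, and both these scalings called Irf9 within Xbp1flIre1fl. The replicate block within each genotype called Irf9 within Xbp1flIre1fl (−0.23, adjusted p = 0.0103), as did an additive replicate block (adjusted p = 0.0258), and changed no other call of a member. In the paired form (exact sign-flip test), the Irf4 to Irf8 ratio within 1 genotype cannot go below p = 0.125, for differences of 2.32 in Xbp1flIre1fl and 2.05 in Xbp1fl. Without replicates 2 and 4 of the Xbp1flIre1fl mature group that ratio difference was 3.09 (exact permutation p = 0.0667, the smallest possible), 1 member (Irf8) was called between genotypes in mature cells, and values that did not pass reversed there: Irf1 0.13, Irf7 −0.077 and Irf9 −0.088, and the Irf9 interaction −0.0075. The Irf8 interaction was 0.011 with library sizes only. Leaving out 1 library moved the sign of other values that did not pass, in these ranges: the interaction of Irf7 −0.15 to 0.069 and of Irf8 −0.12 to 0.071; between genotypes in mature cells Irf1 −0.23 to 0.021 and Irf9 −0.052 to 0.17, and in immature cells Irf1 −0.012 to 0.48, Irf2 −0.073 to 0.0063, Irf4 −0.25 to 0.011 and Irf5 −0.0022 to 0.055. The cause of these changes was not tested. Over all genes, DESeq2 called 36 against 17 with edgeR between genotypes in mature cells and 40 against 16 in immature cells.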

Other observations

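Within the mature libraries, members were set against Ccr7, a relation chosen after seeing the data, as 16 relations (8 members in each stage). Irf4 was higher where Ccr7 was higher in mature libraries (Pearson r = 0.82, permutation p = 0.0133, adjusted p = 0.213; Spearman rho = 0.90, permutation p = 0.00456, adjusted p = 0.073; n = 8). Without the 2 libraries farthest from the median of Ccr7, r was 0.91. Irf8 ran the other way (r = −0.74, permutation p = 0.0372, adjusted p = 0.247; rho = −0.79, permutation p = 0.0279, adjusted p = 0.223), and r was −0.47 without those 2 libraries. Irf1 had r = 0.72 (permutation p = 0.0464, adjusted p = 0.247; rho = 0.71, permutation p = 0.0576, adjusted p = 0.307), and 0.90 without them. None of the 16 relations passed the adjustment. Each genotype has 4 mature libraries, too few for a value within genotype. B cell marker sums were also highest in replicate 3 of the Xbp1flIre1fl mature group, the library with the most Ccr7, and their part in these relations was not tested.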
